A study of Mus musculus with 6 samples.

Results

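The genes described here are 9 genes of early B lymphocyte development, namely Cd79a, Cd79b, Vpreb1, Vpreb3, Igll1, Blnk, Rag1, Pax5 and Ebf1. They are given by name, as receptor, adaptor, recombinase and factor genes of this lineage, with earlier results of these data known. Of the 9, 8 were each measured by 1 probe set that the platform annotation pairs with a single symbol, among 22180 genes measured in this way. The only probe set that names Rag1 names a second gene as well, so no value is given for it. RNA came from 6 samples on 1 microarray each, 3 from mice with acute myeloid leukemia (AML) and 3 from mice with chronic myeloid leukemia (CML). All 6 were sorted as osteoblastic cells from the bone marrow of Col2.3 GFP mice, whose green fluorescent protein is driven in bone-forming cells by part of the Col1a1 promoter, and the titles call them stromal cells. The leukemia of each sample was read from its title, as the source names give CML for all 6, so every direction given rests on the titles. How each leukemia was induced, the age of the mice and whether mice were pooled are not given in the sources used here.

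B lymphocytes arise in the bone marrow from progenitors that depend on signals from stromal and bone-lining cells. The transcription factors EBF1 and PAX5 commit these progenitors to the lineage. Once an immunoglobulin heavy chain gene has been joined by the RAG recombinase, the chain is displayed with a surrogate light chain, made of the products of Igll1 and of Vpreb1 or Vpreb2, as the pre-B cell receptor. CD79A and CD79B carry its signal into the cell, where the adaptor BLNK couples it to downstream enzymes. Ebf1 is also known from cells outside the B lineage, among them adipocyte progenitors and reticular stromal cells of the marrow.

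None of the 8 measured genes differed between AML and CML beyond the spread of the arrays in limma's test over all 22180 genes, although every one had a lower mean in AML. The median of their log2 changes, AML minus CML, was -1.91, against -0.11 over all genes. By value, 61.7% of all genes were lower in AML. With a Benjamini-Hochberg adjusted p under 0.05 as the threshold, 0 of the 8 were called, against 1.91% of all genes, and 0 of the 8 had an unadjusted p under 0.05, against 21.5% of all genes. The single arrays show how the values were spread, since 7 of the 8 genes, all but Vpreb1, were highest on CML 1, and the same 7 were low on CML 2.

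On all 6 arrays together, the mean log2 intensity of the 8 genes was 4.27, 5.35 and 4.22 on AML 1, 2 and 3, and 8.02, 4.37 and 6.14 on CML 1, 2 and 3. CML 1 and CML 3 thus lay above all AML arrays, while CML 2 lay below AML 2. The median probe set stood between 4.11 and 4.35 on the 6 arrays, which gives a scale for dim values, since no detection p-value was used.

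**Figure D1:**
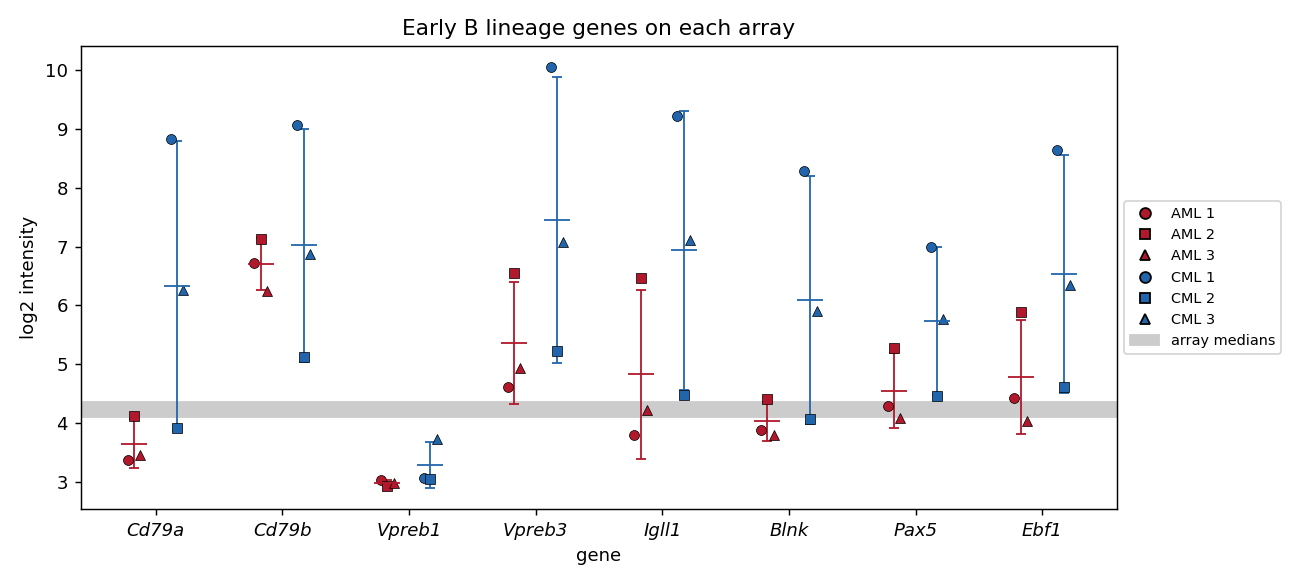
Log2 intensity (y axis) of the 8 measured genes (x axis) on the 3 AML arrays (red, left) and the 3 CML arrays (blue, right), with the mean and SD of each group (n = 3) and a grey band for the array medians of 4.11 to 4.35. CML 1 was the highest array for every gene but Vpreb1, while CML 2 lay among or below the AML arrays except for Vpreb1.

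The pan-leukocyte gene Ptprc, which encodes CD45, followed this order within the CML arrays but was high on all 3 AML arrays. Ptprc had log2 intensities of 9.30, 9.0 and 8.17 on AML 1, 2 and 3, against 8.27, 4.96 and 6.16 on CML 1, 2 and 3. Col1a1, the main collagen of bone and the marker of the sorted lineage, was at 8.63, 9.87 and 7.26 on the AML arrays and at 10.22, 8.71 and 11.95 on the CML arrays. Like the members other than Vpreb1, it was higher on CML 1 and CML 3 than on CML 2 and was highest on AML 2 among the AML arrays. Its highest array, however, was CML 3. In such bulk samples fewer cells of a type and less RNA per cell cannot be told apart. Each of 17 pan-haematopoietic genes had a higher mean in AML, the median of their changes was 1.47, and Vav1 passed. Their mean log2 level was 9.20, 9.34 and 8.56 on the AML arrays and 8.34, 6.57 and 7.40 on the CML arrays. Their part in the B lineage values was not tested.

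Among the signalling subunits of the receptor, Cd79a and Cd79b differed in how their values fell between the groups. Cd79a (probe set 17475127, chromosome 7) had log2 intensities of 3.37, 4.12 and 3.46 on AML 1, 2 and 3, against 8.84, 3.91 and 6.26 on CML 1, 2 and 3. The 3 AML arrays were all at or below the array medians, 2 CML arrays were far above them, and CML 2 lay within the AML range. It averaged 3.65 ± 0.41 on the AML arrays and 6.34 ± 2.46 on the CML arrays (SD, n = 3 each), a difference that did not pass (log2 change -2.68 ± 1.13, SE; 95% interval -5.38 to 0.007; limma adjusted p = 0.233). Without CML 1 the change was -1.43, and without CML 2 it was -3.90 (limma adjusted p = 0.279 and 0.0613).

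Cd79b (probe set 17270837, chromosome 11), the partner with which CD79A forms a dimer, was at 6.72, 7.14 and 6.25 on AML 1, 2 and 3, against 9.07, 5.12 and 6.88 on CML 1, 2 and 3. It was well above the array medians on all 3 AML arrays, and the AML values lay inside the CML range. The log2 change was -0.32 ± 0.92 (SE; 95% interval -2.51 to 1.87; limma adjusted p = 0.836). Its sign turned without CML 1, where the change was 0.70 (limma adjusted p = 0.468). The difference of log2 values, Cd79a minus Cd79b, was -3.35, -3.01 and -2.79 on the AML arrays and -0.23, -1.21 and -0.62 on the CML arrays. These did not overlap between the leukemias. The pair was set side by side after the values were seen, and Cd79a was not above the median of AML 1, 2 or 3 or CML 2, so this is a description with no test.

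Of the surrogate light chain genes among the members, Igll1 varied widely over the arrays and Vpreb1 did not. Vpreb3, whose product is VpreB-like, also varied widely. Igll1 (probe set 17328567, chromosome 16) encodes lambda-5, the constant-like part of the surrogate light chain. It was at 3.80, 6.46 and 4.22 on AML 1, 2 and 3, against 9.23, 4.48 and 7.11 on CML 1, 2 and 3. AML 2 stood 2.25 above the next AML array, and CML 2 stood below AML 2, so the groups overlapped. The log2 change was -2.11 ± 1.25 (SE; 95% interval -5.10 to 0.87; limma adjusted p = 0.339), and -0.97 without CML 1.

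Vpreb3 (probe set 17234441, chromosome 10), a VpreB-like protein that associates with immunoglobulin chains inside early B cells, followed the same order. Its log2 intensities were 4.62, 6.55 and 4.94 on AML 1, 2 and 3, against 10.06, 5.23 and 7.09 on CML 1, 2 and 3. The CML 1 value lay above 99.1% of probe sets on that array. Again AML 2 was the highest of the AML arrays and CML 2 the lowest of the CML arrays. The log2 change was -2.09 ± 1.19 (SE; 95% interval -4.94 to 0.76; limma adjusted p = 0.328), and -0.79 without CML 1.

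Vpreb1 (probe set 17328573, chromosome 16), one of the variable-like parts, was dim throughout. It was at 3.03, 2.92 and 2.98 on AML 1, 2 and 3, against 3.07, 3.05 and 3.73 on CML 1, 2 and 3. Every value lay between the 21.6th and the 36.0th percentile of its array. It was the 1 gene of the 8 whose groups did not overlap, with all CML arrays above all AML arrays, as 17.9% of all genes had. The difference was small (log2 change -0.31 ± 0.21, SE; 95% interval -0.82 to 0.20; limma adjusted p = 0.399), and CML 3, not CML 1, was its highest array. Without CML 3 the change was -0.08 (limma adjusted p = 0.772).

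Vpreb2, the near copy of Vpreb1 that can take the same place in the receptor, varied over the arrays as Igll1 did. Its probe set gave 4.54, 6.18 and 4.90 on AML 1, 2 and 3, against 8.48, 5.28 and 7.12 on CML 1, 2 and 3 (log2 change -1.76 ± 0.83, SE; limma adjusted p = 0.266). Transcripts of such near copies can bind the same probes, so the split between Vpreb1 and Vpreb2 on this array is uncertain. The likeness of the pair also shows in the windows around their annotated starts, which RefSeq places differently.

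The windows are printed here for the pair, to show how alike the near copies are, for Igll1, Cd79a and Blnk, which were high on the same CML arrays and hold a match to the motifs searched, and for Vpreb3, which was high on those arrays and holds none. Each runs from 250 bases before to 50 bases after the annotated start in RefSeq, build GRCm38.p6, 5′ to 3′ on the gene's strand. Capitals mark matches to CAGGTG on either strand, the E-box form bound by E2A proteins, and to CCCNNGGG, the core of the EBF1 motif.
Vpreb1, chr16:16869206-16869505, minus strand: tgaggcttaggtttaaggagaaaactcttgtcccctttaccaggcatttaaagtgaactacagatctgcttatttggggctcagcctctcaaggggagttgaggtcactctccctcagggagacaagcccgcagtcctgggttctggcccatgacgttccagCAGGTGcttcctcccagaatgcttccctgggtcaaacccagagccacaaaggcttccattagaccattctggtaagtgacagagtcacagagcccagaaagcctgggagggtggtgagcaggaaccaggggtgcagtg
Vpreb2, chr16:17980315-17980614, plus strand: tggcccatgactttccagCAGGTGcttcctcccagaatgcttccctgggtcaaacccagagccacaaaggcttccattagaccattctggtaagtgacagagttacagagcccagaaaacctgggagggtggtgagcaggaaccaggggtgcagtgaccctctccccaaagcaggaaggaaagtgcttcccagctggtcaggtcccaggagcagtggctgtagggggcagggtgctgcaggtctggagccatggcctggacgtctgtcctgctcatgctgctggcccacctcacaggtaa
Igll1, chr16:16863936-16864235, minus strand: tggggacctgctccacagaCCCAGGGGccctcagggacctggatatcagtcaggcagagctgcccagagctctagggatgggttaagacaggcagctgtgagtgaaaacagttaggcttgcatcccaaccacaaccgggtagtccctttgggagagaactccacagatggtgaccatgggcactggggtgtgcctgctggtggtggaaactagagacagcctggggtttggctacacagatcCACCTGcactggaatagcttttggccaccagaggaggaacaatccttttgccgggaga
Cd79a, chr7:24897247-24897546, plus strand: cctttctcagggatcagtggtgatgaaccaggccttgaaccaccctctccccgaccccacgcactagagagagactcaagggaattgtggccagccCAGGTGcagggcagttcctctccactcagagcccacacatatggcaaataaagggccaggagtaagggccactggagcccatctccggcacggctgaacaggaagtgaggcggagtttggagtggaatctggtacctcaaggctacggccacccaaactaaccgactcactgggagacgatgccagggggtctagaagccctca
Blnk, chr19:40994172-40994471, minus strand: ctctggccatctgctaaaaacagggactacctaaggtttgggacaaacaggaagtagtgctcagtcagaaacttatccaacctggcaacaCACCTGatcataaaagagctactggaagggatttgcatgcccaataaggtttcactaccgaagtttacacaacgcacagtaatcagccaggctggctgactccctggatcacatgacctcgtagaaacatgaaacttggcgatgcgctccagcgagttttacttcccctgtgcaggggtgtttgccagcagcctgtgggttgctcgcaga
Vpreb3, chr10:75948050-75948349, plus strand: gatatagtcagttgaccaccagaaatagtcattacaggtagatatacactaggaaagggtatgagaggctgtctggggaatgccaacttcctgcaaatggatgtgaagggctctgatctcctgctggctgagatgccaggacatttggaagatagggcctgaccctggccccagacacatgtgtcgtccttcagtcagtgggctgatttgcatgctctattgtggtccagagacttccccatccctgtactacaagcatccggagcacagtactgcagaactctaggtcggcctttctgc

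The Vpreb1 and Vpreb2 windows share a stretch of 156 bases, of which 153 were identical, or 98.1%, with CAGGTG in it at 88 bases before the annotated Vpreb1 start and at 232 bases before the annotated Vpreb2 start. Windows were held for 8 of the 9 members, all but Cd79b, and for 2 starts of Ebf1. CAGGTG on either strand was found in 5 of the 8, namely Cd79a, Blnk, Igll1, Vpreb1 and Rag1, and in 20.2% of all 32851 windows of this length. CCCNNGGG, which reads the same on both strands, was found for Igll1 alone, 231 bases before the start, and in 13.7% of all windows. The looser CANNTG, which includes CAGGTG, was in all 8 and in 72.3% of all windows. Vpreb1, which was low on every array, held CAGGTG, and Vpreb3, Pax5 and Ebf1, which were high on CML 1, did not. Such matches describe letters in a window and do not show binding.

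The adaptor and the 2 transcription factors were, like Cd79a, Igll1 and Vpreb3, highest on CML 1 and next on CML 3. Blnk (probe set 17364565, chromosome 19), which links the activated receptor to phospholipase C-gamma and BTK, was at 3.88, 4.41 and 3.80 on AML 1, 2 and 3, against 8.29, 4.08 and 5.91 on CML 1, 2 and 3. As with Cd79a, the AML arrays and CML 2 were near the array medians and only CML 1 and CML 3 stood clear of them. The log2 change was -2.06 ± 0.97 (SE; 95% interval -4.37 to 0.25; limma adjusted p = 0.266), and -0.96 without CML 1.

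Pax5 (probe set 17424884, chromosome 4), which maintains B cell identity, was at 4.30, 5.28 and 4.08 on AML 1, 2 and 3, against 6.99, 4.47 and 5.76 on CML 1, 2 and 3. The spread over the CML arrays, 2.52, was larger than the difference of the group means, and AML 2 lay above CML 2. The log2 change was -1.19 ± 0.64 (SE; 95% interval -2.73 to 0.36; limma adjusted p = 0.312), and -0.56 without CML 1.

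Ebf1 (probe set 17248691, chromosome 11), which acts before Pax5 in the lineage, was at 4.43, 5.89 and 4.03 on AML 1, 2 and 3, against 8.65, 4.61 and 6.36 on CML 1, 2 and 3. Its values spanned 4.62 on the log2 scale over the 6 arrays, from AML 3, which was just below its array median, to CML 1. The log2 change was -1.76 ± 1.01 (SE; 95% interval -4.18 to 0.67; limma adjusted p = 0.332), and -0.70 without CML 1. The mean of the remaining CML arrays was then 5.48, against 4.78 in AML.

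**Figure D2:**
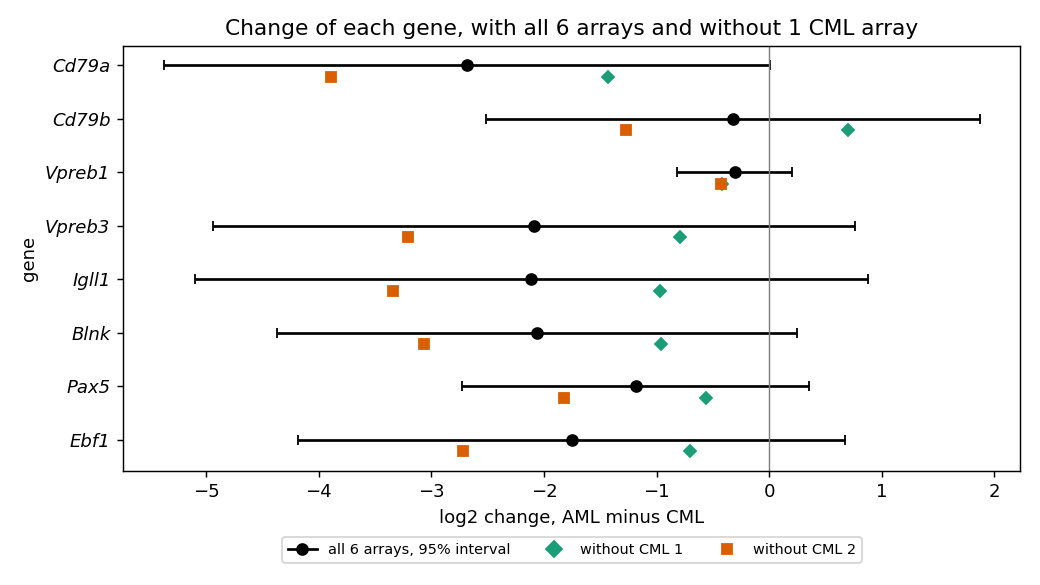
Log2 change, AML minus CML (x axis), of each gene (y axis) with all 6 arrays and its 95% interval from limma (black), and the change without CML 1 (green) or without CML 2 (orange). All 8 intervals include 0, and leaving out CML 1 moved Cd79b to 0.70 while leaving out CML 2 moved Cd79a to -3.90.

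Because Ebf1 is also made by marrow stroma, it was set beside other genes of that compartment. Its paralogue Ebf3, known from reticular stromal cells, was at 4.66, 4.74 and 4.23 on AML 1, 2 and 3, against 4.56, 4.49 and 5.62 on CML 1, 2 and 3, and so was highest on CML 3 (log2 change -0.35 ± 0.33, SE; limma adjusted p = 0.520). Ebf1 followed Pax5 closely, with a Pearson correlation of 0.997 over the 6 arrays and also without CML 1, over 5 arrays. Of 14 stromal genes, which include the other EBF genes, 7 were higher and 7 lower by value with a median change of -0.06. Zfp521, a zinc finger protein known to inhibit EBF1, had a log2 change of -1.15 ± 0.18 and passed as lower in AML (SE; limma adjusted p = 0.0380). It was at 3.85, 4.19 and 4.25 in AML and at 5.03, 5.32 and 5.38 in CML, with no overlap.

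Members with a like pattern can be described by their correlation over the 6 arrays, in which CML 1 lies far from the others. Among Cd79a, Blnk, Vpreb3, Igll1, Pax5 and Ebf1, Pearson's r of log2 values ran from 0.940 for Igll1 with Blnk to 0.998 for Cd79a with Blnk. Without CML 1 these pairs ran from 0.850 for Cd79a with Ebf1 to 0.999 for Vpreb3 with Igll1, over 5 arrays. Cd79b kept apart once CML 1 was left out, with r from 0.22 to 0.55 against the other members. Among these pairs, Cd79a went most closely with Blnk and Ebf1 with Pax5.

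Genes outside the members with the most similar pattern were of mixed kinds, and some are known from B cell precursors. Of the brighter 50% of genes, Pou2af1 (r = 0.988) followed Vpreb3, Vpreb2 (r = 0.992) followed Igll1 and Enpep (r = 0.998) followed Blnk. S100a16 (r = 0.996) and Ankrd6 (r = 0.994) followed Igll1 more closely than Vpreb2 did. Pou2af1 encodes a coactivator of octamer factors in B cells, and Enpep encodes an aminopeptidase known in the mouse as the pre-B cell antigen BP-1. Enpep was at 3.39, 3.84 and 3.38 on AML 1, 2 and 3, against 7.88, 3.75 and 5.26 on CML 1, 2 and 3. Akap12 (r = 0.997) followed Ebf1, Plcg1 (r = 0.999) followed Pax5, and Upp1 (r = 0.998 for both) followed Cd79a and Blnk. Cd79b was followed by Tbc1d10c (r = 0.992) and Vpreb1 by Prss8 (r = 0.996). Also among the 3 closest genes were Cdh1 for Cd79a, Tnfrsf19 for Pax5, Snx8 and Esrra for Cd79b, and Slc36a2 and Ccdc102a for Vpreb1. With 6 arrays and 10188 candidate genes, high correlations are common, and no p is given.

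The stage of the lineage was described with genes of recombination and of mature B cells, several of which were picked from the lists after their values were seen. Rag2, the partner of RAG1 in the recombinase, was at 3.36, 3.83 and 3.56 on AML 1, 2 and 3, against 7.96, 3.71 and 4.05 on CML 1, 2 and 3. Dntt, the terminal transferase that adds bases at heavy chain junctions in progenitors, was at 3.73, 4.91 and 3.45 in AML, against 9.26, 4.33 and 5.58 in CML. Rag2 was thus bright on CML 1 alone, while CML 3, which had Igll1 and Vpreb3 above 7, had Rag2 below the array median of 4.35. Neither passed (log2 changes -1.65 ± 1.07 and -2.36 ± 1.21, SE; limma adjusted p = 0.372 and 0.291). Il7r, the receptor chain for interleukin 7, was dim on 5 arrays and at 4.77 on CML 1 (log2 change -0.47 ± 0.58, SE; limma adjusted p = 0.618).

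Genes of mature B and plasma cells gave mixed levels over the arrays. Their mean log2 level was 4.84, 4.99 and 4.60 on AML 1, 2 and 3, against 5.60, 4.88 and 4.90 on CML 1, 2 and 3, so it too was highest on CML 1. Some surface genes were dim on every array. Ms4a1, which encodes CD20, ranged from 2.86 to 3.22 in AML and from 3.01 to 3.31 in CML. Cr2 and Fcer2a, receptors of mature follicular B cells, did not exceed 2.90 and 3.40 in AML and 3.25 and 3.24 in CML. Others were above the median of CML 1. Among them were Ighm, the heavy chain gene, at 9.60, Mzb1, a chaperone of antibody-making cells, at 7.89 and Cxcr5, a chemokine receptor, at 7.05. Of these, Ighm and Mzb1 were named after their values were seen. Ighm was bright on every array by the brightest of its 7 probe sets with 1 symbol, and the others are not shown. It was at 8.96, 8.92 and 8.73 on AML 1, 2 and 3 and at 8.10 and 8.16 on CML 2 and 3. Its mean was higher in AML by value (log2 change 0.25 ± 0.40, SE; limma adjusted p = 0.707). Of 15 genes of mature B and plasma cells, 5 were higher and 10 lower in AML by value and none passed, with a median change of -0.16 (-0.09 without CML 1). The lowest unadjusted p among them belonged to Tnfrsf13c, the receptor for the survival factor BAFF, which was at 5.90, 6.03 and 6.28 in AML, against 7.77, 9.08 and 7.00 in CML (log2 change -1.88 ± 0.50, SE; limma adjusted p = 0.114). It was highest on CML 2, where the members were low. Cxcr5, next by unadjusted p, had a log2 change of -1.43 (limma adjusted p = 0.239).

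**Figure D3:**
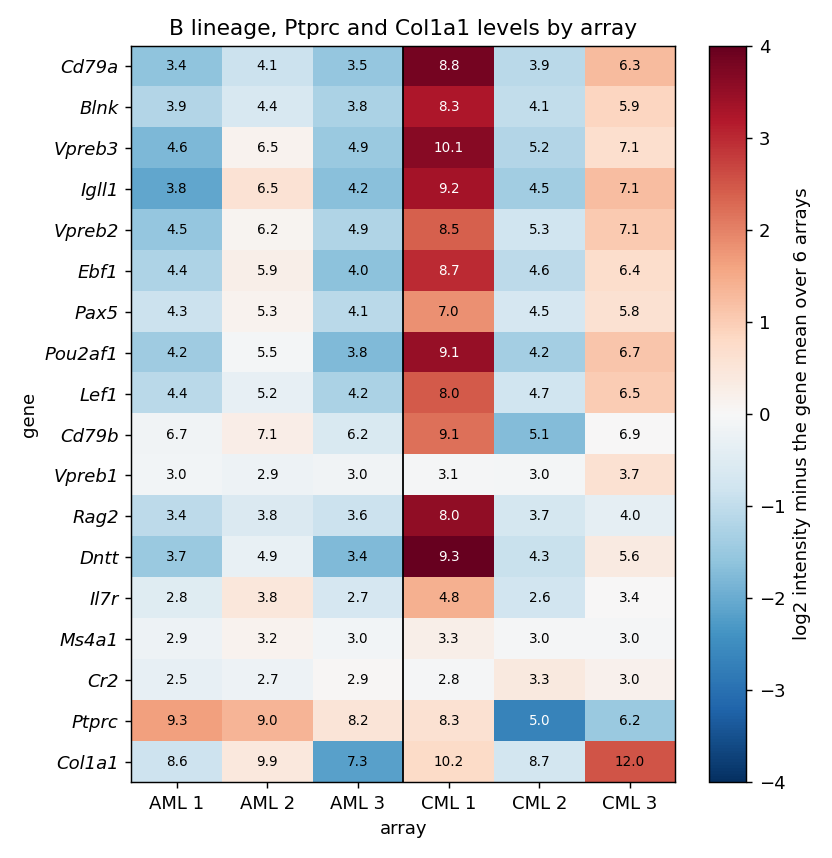
Log2 intensity (numbers in the cells) of B lineage genes, Ptprc and Col1a1 (rows) on the 3 AML arrays (left of the line) and the 3 CML arrays (right), coloured by the difference from the gene's mean over the 6 arrays. Cd79a, Blnk and their neighbours were highest on CML 1 and next on CML 3, Rag2 stood out on CML 1 alone, and Ms4a1 and Cr2 were dim everywhere.

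The other genes of the pathway are given by their lists. Of 12 genes of B cell receptor signalling beyond Blnk, 10 had a higher and 2 a lower mean in AML, and the median change was 1.15. Ptpn6, the phosphatase SHP-1, which is shared by most blood cells, rose by 2.43 ± 0.32 (SE; limma adjusted p = 0.0298) and was the only gene of the list past the threshold. It was at 9.31, 9.31 and 8.45 in AML, against 6.93, 6.10 and 6.75 in CML. The 2 lower by value were Blk and Bank1, a B cell kinase of the Src family and a B cell scaffold protein, with log2 changes of -0.67 and -0.72 (limma adjusted p = 0.242 and 0.372). These 2 were named after their values were seen. All 10 myeloid and all 17 pan-haematopoietic genes also had a higher mean in AML. Their part in the values of the signalling list was not tested.

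Of 16 transcription factors of the lineage, 5 were higher and 11 lower by value, with a median change of -0.70. Spi1, which encodes PU.1, a factor of both myeloid and B cells, rose by 1.96 ± 0.33 (SE; limma adjusted p = 0.0453) and was the only gene of the list to pass with all 6 arrays. Without CML 1, Spi1 did not pass, Ikzf1, Irf8 and Myb did as higher in AML, with log2 changes of 1.16, 3.34 and 3.01 (limma adjusted p = 0.0410, 0.0374 and 0.0370), and the list's median was -0.44. Spi1 was at 9.07, 9.02 and 8.12 in AML and at 6.41, 6.66 and 7.25 in CML. Pou2af1 was at 4.16, 5.52 and 3.82 in AML, against 9.07, 4.24 and 6.68 in CML, again highest on CML 1 and next on CML 3. Lef1, a factor of pro-B cells named after its values were seen, was likewise at 4.41, 5.18 and 4.24 in AML, against 7.96, 4.70 and 6.53 in CML. Of 11 genes of the lineage surface, 3 were higher and 8 lower by value and none passed, with a median of -0.41. Without CML 1 this median was -0.19, and Cd93, a receptor of progenitors, passed as higher in AML at 2.19 (limma adjusted p = 0.0483). Flt3, a receptor of early progenitors, was 0.91 ± 0.24 higher by value and Cd22, an inhibitory receptor of B cells, stood at -0.41 ± 0.17 (SE; limma adjusted p = 0.118 and 0.225). Of 10 genes of recombination and end joining, 4 were higher and 6 lower by value and none passed, with a median of -0.01, but without CML 1 the tally was 7 higher and 3 lower, with a median of 0.14. Prkdc, the kinase of end joining, had the lowest unadjusted p of that list, at 0.50 ± 0.25 (SE; limma adjusted p = 0.286).

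**Figure D4:**
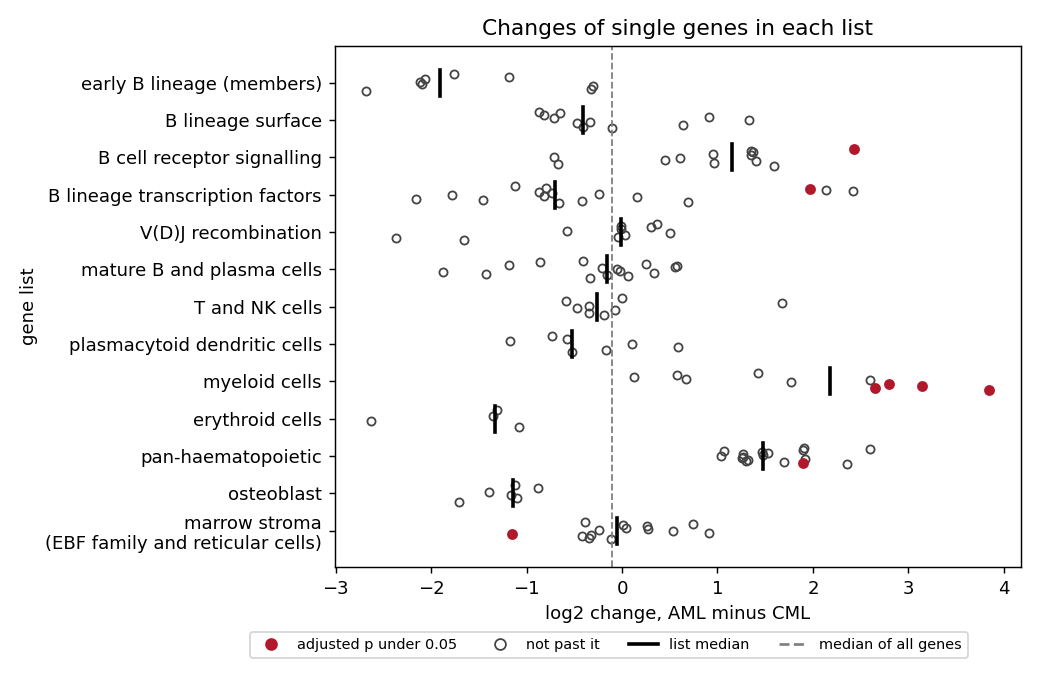
Log2 change, AML minus CML (x axis), of every measured gene in each list (y axis), with the list's median (black bar) and the median of all genes, -0.11 (dashed). Filled red points passed a limma adjusted p of 0.05; none of the 8 members did, while 4 of 10 myeloid genes did.

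Markers of other cell types gave several orders over the arrays, of which that of the osteoblast genes was close to the members' order. All 10 myeloid genes were higher in AML by value and 4 rose, namely Elane, Prtn3, Cd68 and Mpo, with a mean log2 level over the list of 9.62, 9.72 and 8.93 on the AML arrays and 7.44, 7.06 and 7.89 on the CML arrays. Genes of T and NK cells had a mean level of 4.25, 4.12 and 4.05 in AML and 4.13, 4.08 and 4.33 in CML. Of these 8 genes 7 had a lower and 1 a higher mean in AML, and the median change was -0.26. The 1 higher was Nkg7, a granule protein of cytotoxic cells, at 1.68 ± 0.37, and Klrb1c, an NK cell receptor, stood at -0.59 ± 0.24 (SE; limma adjusted p = 0.0789 and 0.225). Nkg7 was above the array median on every array, at 9.35, 9.31 and 8.51 in AML and at 7.34, 6.77 and 8.02 in CML. Klrb1c was above it on CML 1 alone, at 4.56, and Cd4 on CML 3 alone, at 4.84. Cd3d, Cd3e, Cd3g, Cd8a and Gzma were below it on every array. Genes of plasmacytoid dendritic cells, which share some B lineage transcripts, had a mean level of 4.91, 5.03 and 4.89 in AML and 5.45, 5.23 and 5.22 in CML, a spread far smaller than that of the members. Their leading genes, Cox6a2 and Irf7, stood at -0.73 and -1.18 without passing (limma adjusted p = 0.0594 and 0.103). Osteoblast genes had a mean level of 7.27, 8.30 and 6.57 on AML 1, 2 and 3 and 8.49, 7.34 and 10.01 on CML 1, 2 and 3. This was the members' order of arrays with CML 1 and CML 3 exchanged. Osteoblast genes were lower by value for 6 of 6 and erythroid genes for 4 of 4. Their medians were -1.15 and -1.33, with none past the threshold. The lowest unadjusted p among them belonged to Col1a2 and Col1a1 for bone (log2 changes -1.10 and -1.71) and to Slc4a1 and Epor, the red cell anion exchanger and the erythropoietin receptor, for red cells (-2.63 and -1.35). The parts of these cell types in the members' values were not tested.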

How the data were processed

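The authors deposited 1 table of intensity values for 39721 probe sets on 6 arrays. The values were taken to be linear from their size, with array medians of 17.2 to 20.4. Limma and lumi are named in the submitters' processing notes, without a version. Background correction, summarising and normalization are not given in the sources used here. Per the labels, RNA was extracted with a micro column kit. Groups came from the titles. Whether samples came from separate mice is not stated, so the spread that p-values measure may be technical. Arrays have no read depth, and their number limits the precision.

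Of the probe sets, 23521 had 1 symbol, 1814 several and 14386 none. The brightest probe set stood for each of 1082 genes with more than 1. Log2 values were fitted with limma 3.58.1 in R 4.3.3 (lmFit and eBayes, no filter or covariate), two-sided, with Benjamini-Hochberg adjustment over all 22180 genes. Of 144 further genes in the lists, 130 were measured. Members and lists were chosen with earlier results of these data known. Lists are described by counts and medians.

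Named were all members, up to 4 genes past the threshold per list or else the 2 with the lowest unadjusted p, Ptprc, Col1a1, Ebf3, Il7r and Rag2, and the 3 genes closest to each member by Pearson correlation among the upper 50% by mean level, of which the text gives a part. The fit was tested on simulated data. Alternatives were other scalings, filters, moderation, weights, the replicate block and each array left out in turn. Figures used matplotlib 3.10.9 and Python 3.11.15.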

Additional observations from a re-analysis of the deposited data

How the results depend on the processing

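The number of the 8 members called was 0 in limma as fitted and under every alternative run, with 0 at an unadjusted p under 0.05 as fitted and up to 6 without CML 2. The members' log2 changes kept their sign under each alternative, with 1 exception, Cd79b at 0.70 without CML 1 (-1.27 without CML 2). Vpreb1 was too dim for the upper 50% of genes and has no value there. Every member has 1 probe set, so using each probe set alone or their mean left the changes as they were. With 1 array left out, the change ran from -3.90 to -1.43 for Cd79a, from -3.34 to -0.97 for Igll1, from -3.20 to -0.79 for Vpreb3 and from -3.07 to -0.96 for Blnk, with the lowest value without CML 2 and the highest without CML 1 in each. Without CML 1, a setting chosen for the lists after the data were seen, 7 of the 8 members were lower by value and their median was -0.75, against -0.10 for all genes. The cause was not tested.

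The count over all genes, 423 as fitted, was 93 after quantile normalization, 64 after cyclic loess, 896 after median centring and 639 with array weights. With 1 array left out it ran from 0 to 438, and it was 0 without AML 1, AML 2 or CML 3, where an unadjusted p under 0.05 was reached in limma by 3048, 3750 and 3533 genes. Median centring moved the median change of all genes from -0.11 to 0.04. With the replicate number as a block, 0 genes passed in limma and 3711 had an unadjusted p under 0.05. Deviations of same-numbered arrays from their group means had correlations of 0.24, -0.30 and -0.25. With 3 arrays in each group such deviations constrain one another, so these values cannot decide whether the numbers pair the samples. No members' call changed with the block. Dim values limit Vpreb1, whose 6 arrays lay in the lower 36.0% of probe sets.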
